A study of Mus musculus with 9 samples.

Results

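Axon guidance genes of the semaphorin, ephrin, Slit and netrin families were followed across stromal and whole bone marrow samples of the mouse. The members are all genes named as semaphorins of classes 3 to 7, plexins, neuropilins, Eph receptors, ephrins, Slits, Robo receptors, netrins and Unc5 receptors that have a row of their own on the array. This rule uses names and no measured value. It gave 67 genes on 72 rows, of 19938 genes on 21789 rows that pair with 1 gene symbol, and the row with the highest mean stands for a gene with several rows. Of 68 RefSeq symbols that meet the rule, the remaining symbol was not analysed here.

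RNA of C57Bl/6J young adults was hybridised to 9 arrays (Affymetrix Mouse GE ST 1.0). The reporter mice carry an IL7-Cre transgene and are heterozygous for Rosa-eYFP, so that YFP stays on in any cell that has expressed the Cre, and in its progeny. Sorted cells were negative for CD45 and lineage antigens and positive for CD54 (Icam1) and BP1 (Enpep), from mice aged 6 to 12 weeks. Of these, 3 arrays held YFP-positive cells of the reporter mice, 1 array held YFP-negative cells of the same genotype (2300 cells), and 3 arrays held the gate from wild-type mice, in which no reporter splits it (1800 to 10000 cells per sample in the YFP-positive and wild-type groups). Unsorted total marrow of wild-type mice was the control, on 2 arrays, from 10 ng of RNA.

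Guidance proteins are ligands and receptors that steer growing axons and migrating cells by attraction or repulsion. Secreted class 3 semaphorins act on neuropilins paired with plexins, and membrane-bound semaphorins act on plexins directly. Ephrins are anchored in the membrane and signal both ways with Eph receptors on a neighbouring cell, Slits bind Robo receptors, and netrins bind Dcc, neogenin and Unc5 receptors. The same proteins act in vessels, bone and immune cells. In bone marrow, reticular stromal cells around sinusoids provide Cxcl12, stem cell factor and Il7 to blood-forming cells.

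The sorted arrays carried the markers of reticular stroma, with all 9 markers of the list called higher than in total marrow in the YFP-positive, wild-type and YFP-negative samples. Il7 as deposited stood at 6.41 to 7.87 in the YFP-positive, 7.54 to 7.97 in the wild-type and 3.19 to 3.40 in the total marrow arrays, and Ptprc, which encodes CD45, at 3.60 to 3.80 in both of these sorted groups against 9.69 to 9.75. The YFP-negative array held Il7 at 5.87 as deposited, below every other sorted array. After the rescaling described next it stood at 7.03, which is on another scale than the deposited values. On that scale none of the 4 gate genes (Il7, Icam1, Enpep and Ptprc) was called between YFP-negative and YFP-positive cells. Endothelial markers were called higher in 0 of 12 and lower in 4 of 12 in both the YFP-positive and the wild-type cells. Of 5 osteoblast markers 4 were called higher in the YFP-positive and 5 in the wild-type group, with a mean log2 level of 7.71 to 8.18 against 3.84 to 4.03 in total marrow, and of 4 Schwann cell markers 1 was called higher in each; their part in the results was not tested. The YFP-negative array stands apart, with a median log2 signal of 3.46 against 4.51 to 4.60 in the other 8 arrays. Comparisons with it are therefore given after cyclic loess normalization of all 9 arrays, and all other comparisons on the deposited log2 values.

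Guidance genes were among the transcripts that separate the sorted stroma from total marrow, mostly with higher signal in the stroma. Calls in either direction took in 29.5% of all rows for YFP-positive and 24.3% for wild-type cells. In YFP-positive cells 24 of the 67 members (35.8%) were called higher than in total marrow, where 11.0% of all rows tested were, and 3 (4.48%) were called lower, where 18.5% of all rows were. In wild-type cells 25 members (37.3%) were called higher, where 10.4% of all rows were, and 3 (4.48%) lower, where 13.9% were. A call is an adjusted p under 0.05 in limma with Benjamini-Hochberg adjustment over all 21789 rows. Of the members, 20 were called higher and 3 lower in both sorted groups, which share the same 2 control arrays. The median log2 change over the 67 was 0.34 for YFP-positive and 0.23 for wild-type cells, beside 0.09 and 0.00 over all rows tested. Another 35 members were called in neither group, and 24 of the 67 lay below the median of all values (4.43) in every array. In bulk samples, fewer cells that express a gene and less RNA per cell cannot be told apart.

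The 3 members most raised over total marrow, by the mean of both changes, were Slit3, Sema6d and Plxna2, and the 3 called lower were Sema4a, Plxnc1 and Sema4d. They were taken from the members called in the same direction in both sorted groups, and whether they share regulation was not tested. The 250 bases before their RefSeq start (GRCm38.p6, 5′ to 3′ on the strand of the gene, the first start listed) are shown. Matches to the GC box GGGCGG on either strand are in capitals.
Slit3, chr11:35121206-35121455, plus strand: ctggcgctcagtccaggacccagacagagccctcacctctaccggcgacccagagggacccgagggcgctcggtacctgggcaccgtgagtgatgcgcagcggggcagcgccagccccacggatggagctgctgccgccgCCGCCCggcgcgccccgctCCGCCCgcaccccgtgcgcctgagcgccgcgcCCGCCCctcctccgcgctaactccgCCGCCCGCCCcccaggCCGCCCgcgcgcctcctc
Sema6d, chr2:124089719-124089968, plus strand: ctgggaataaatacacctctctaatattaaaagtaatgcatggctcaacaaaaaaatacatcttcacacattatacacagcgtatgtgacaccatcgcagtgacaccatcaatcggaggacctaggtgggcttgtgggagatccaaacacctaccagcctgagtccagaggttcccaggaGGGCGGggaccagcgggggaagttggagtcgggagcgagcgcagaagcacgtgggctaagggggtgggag
Plxna2, chr1:194619579-194619828, plus strand: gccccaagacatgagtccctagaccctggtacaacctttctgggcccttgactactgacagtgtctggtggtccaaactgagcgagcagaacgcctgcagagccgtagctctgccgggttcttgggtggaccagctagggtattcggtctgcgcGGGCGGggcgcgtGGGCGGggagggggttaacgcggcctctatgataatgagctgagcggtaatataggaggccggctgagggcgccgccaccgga
Sema4a, chr3:88461183-88461432, minus strand: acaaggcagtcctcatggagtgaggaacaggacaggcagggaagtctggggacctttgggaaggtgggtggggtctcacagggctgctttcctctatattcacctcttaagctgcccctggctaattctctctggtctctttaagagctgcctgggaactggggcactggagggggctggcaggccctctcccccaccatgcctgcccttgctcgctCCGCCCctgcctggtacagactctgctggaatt
Plxnc1, chr10:94944846-94945095, minus strand: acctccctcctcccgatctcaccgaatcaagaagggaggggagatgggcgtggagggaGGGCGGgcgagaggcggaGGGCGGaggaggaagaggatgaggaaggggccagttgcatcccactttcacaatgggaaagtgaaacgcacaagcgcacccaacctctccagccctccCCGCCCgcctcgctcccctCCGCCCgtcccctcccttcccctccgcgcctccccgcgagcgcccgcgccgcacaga
Sema4d, chr13:51748811-51749060, minus strand: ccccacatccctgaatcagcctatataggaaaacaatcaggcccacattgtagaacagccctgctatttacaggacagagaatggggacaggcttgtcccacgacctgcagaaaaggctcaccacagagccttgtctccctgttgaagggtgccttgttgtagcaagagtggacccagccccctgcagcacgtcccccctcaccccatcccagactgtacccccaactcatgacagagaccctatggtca

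The GC box occurred 6 times before Slit3 (matches may overlap), once before Sema6d and Sema4a, 2 times before Plxna2, 4 times before Plxnc1 and not before Sema4d. Among members, 15 of 19 listed members called higher in both groups held it (78.9%), 2 of 3 called lower (66.7%) and 18 of 27 called in neither (66.7%). Of all 58 members with a listed promoter 74.1% held it, beside 46.0% of 15614 genes on the array, and the median GC content of the same window was 64.8% and 56.4%. The other motifs were also searched on both strands. The forkhead letters TGTTTAC and the PU.1 letters GAGGAAGT had 0 matches (2.72% and 2.16% of genes on the array), the palindromic EBF motif had 2 (3.45%, beside 0.858%), before Plxnb1 and Robo3, and TATAAA had 2 (3.45%, beside 11.2%). CCAAT occurred before 24.1% of members and 35.5% of genes on the array. A match describes these letters in this window, and 12 members have further starts that were not searched, among them Sema6d, Sema4a and Sema4d.

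Of the 3 Slit ligands, 2 were called higher in each sorted group, and Slit3 had the largest increase of any member in both on the deposited values. Slit3, a secreted repellent that also acts on vessels and bone, stood at a log2 signal of 9.46, 9.01 and 9.15 in YFP-positive replicates 1 to 3, at 9.35, 9.31 and 9.63 in the wild-type arrays and at 4.30 and 3.77 in total marrow. Every sorted array lay above both marrow arrays by a wide gap. The log2 difference was 5.17 ± 0.21 (SE, n = 3 and 2, limma adjusted p = 1.2e-06) for YFP-positive and 5.40 ± 0.21 (SE, n = 3 and 2, limma adjusted p = 9.08e-07) for wild-type cells, about 36.1-fold and 42.2-fold. Slit2, its close relative, stood at 7.32, 7.21 and 6.88 in YFP-positive, 7.06, 7.45 and 7.28 in wild-type and 3.68 and 3.48 in total marrow arrays. Its groups did not overlap either, and the log2 differences were 3.56 and 3.68, each ± 0.18 (SE). Slit1, the third ligand, was not called (0.04 and −0.04) and stood at 3.49 to 3.90 in these 8 arrays. The single Robo receptor called was Robo1, at 8.01, 6.86 and 6.84 in YFP-positive, 6.78, 6.91 and 7.07 in wild-type and 4.38 and 4.34 in total marrow arrays. YFP-positive replicate 1 stood above the other 5 sorted arrays, which ranged from 6.78 to 7.07, and the log2 differences were 2.88 and 2.57, each ± 0.34 (SE). Robo2, Robo3 and Robo4, the last known from endothelium, were not called, with differences of 0.00 to 0.29.

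Among semaphorins, 4 of 7 members of classes 5 to 7 were called higher in the YFP-positive and 3 of 7 in the wild-type group. Sema6d, a transmembrane ligand of A plexins, stood at 9.33, 9.34 and 8.75 in YFP-positive, 9.05, 9.09 and 9.23 in wild-type and 4.30 and 3.82 in total marrow arrays. The sorted and marrow arrays did not overlap, and the log2 difference was 5.08 for the YFP-positive and 5.06 for the wild-type group, each ± 0.22 (SE; limma adjusted p = 1.93e-06 and 1.85e-06). Sema5a, a transmembrane semaphorin that binds proteoglycans, stood at 7.67, 6.46 and 6.40 in YFP-positive, 6.63, 7.02 and 6.88 in wild-type and 3.52 and 3.97 in total marrow arrays. As for Robo1, YFP-positive replicate 1 was the highest array, and both differences were 3.10 ± 0.38 (SE). Sema7a, which is anchored by a lipid and signals through integrins and plexin C1, stood at 7.22, 8.08 and 7.64, at 7.88, 8.20 and 8.001, and at 4.68 and 5.39 in the same order. Its differences were 2.61 and 2.99, each ± 0.29 (SE). Sema4c, a ligand of B plexins, was higher by 1.39 and 1.41, each ± 0.27 (SE), with 5.38 to 6.35 in the 6 sorted arrays and 4.45 to 4.48 in total marrow.

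The class 4 semaphorins Sema4a and Sema4d and the plexin Plxnc1 were called lower in both sorted groups. Sema4a, expressed by dendritic, T and myeloid cells, stood at 3.78, 4.07 and 4.36 in YFP-positive, 4.23, 4.11 and 4.30 in wild-type and 9.27 and 9.12 in total marrow arrays. All sorted arrays lay far below both marrow arrays, and the log2 differences were −5.13 and −4.99, each ± 0.18 (SE; limma adjusted p = 6.16e-07 and 6.14e-07). Sema4d (CD100), a ligand of plexin B1 on lymphocytes, stood at 4.25, 4.20 and 5.05, at 4.65, 4.74 and 4.66, and at 7.10 and 6.90, with differences of −2.50 and −2.32, each ± 0.25 (SE). A second row for Sema4d was not called and stood at 3.92 to 4.70 in the 6 sorted and at 4.51 and 3.99 in the 2 marrow arrays. Plxnc1, the plexin that binds Sema7a and is known from leucocytes, stood at 4.85, 4.32 and 4.58, at 4.09, 4.38 and 4.25, and at 7.42 and 7.60, with differences of −2.93 and −3.27, each ± 0.18 (SE). Blood cell markers moved with these 3 genes, for example 8 of 10 neutrophil, 6 of 6 monocyte and macrophage and 7 of 7 B lineage genes called lower in YFP-positive cells. The mean log2 level of the B lineage list was 3.96 to 4.58 in the 6 sorted arrays against 9.31 to 9.36 in total marrow. The neutrophil list stood at 4.23 to 6.44 in YFP-positive, 3.95 to 5.06 in wild-type and 11.55 to 11.60 in total marrow arrays. The monocyte and macrophage list stood at 3.79 to 4.51, 3.52 to 3.68 and 7.86 to 8.12 in the same order. The part of blood cells in the result was not tested. Sema4b differed by −0.56 and −0.35 and Sema4f by −0.39 and −0.44, neither called.

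**Figure D1:**
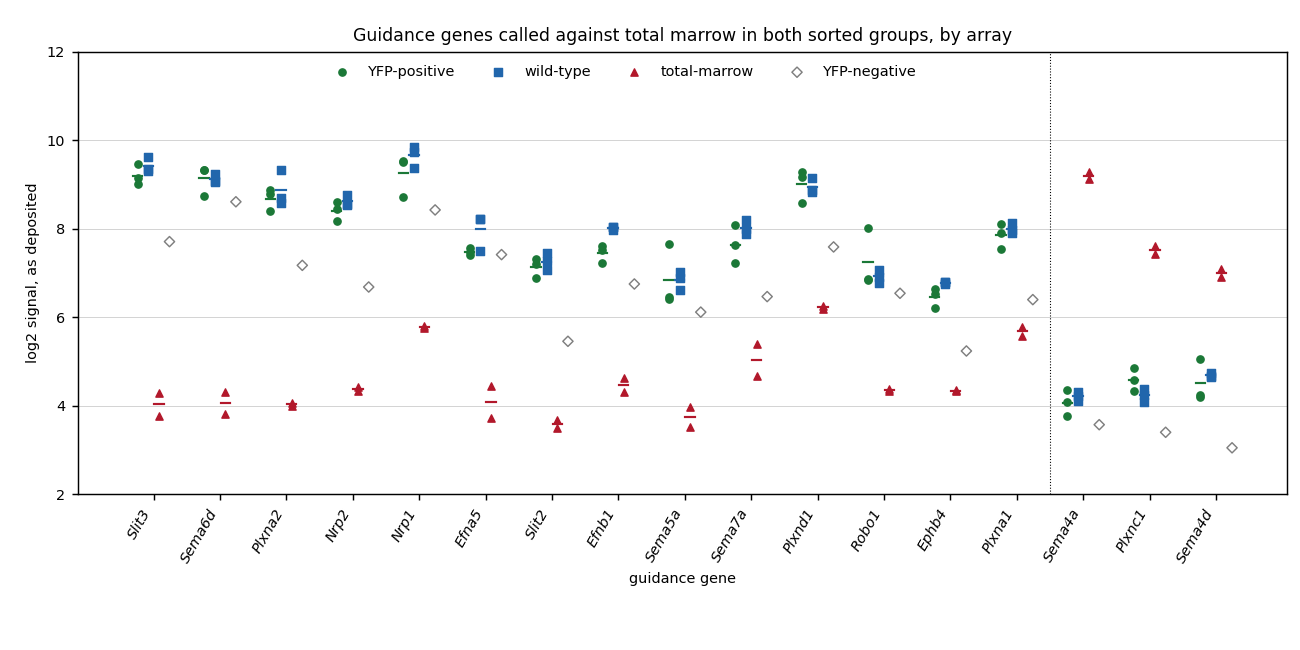
Log2 signal as deposited for the 14 guidance genes with the largest increase and the 3 genes with a decrease called in both sorted groups against total marrow; each point is an array and short bars are group means. The YFP-positive and wild-type points lie above both marrow points for the genes left of the dotted line and below them for Sema4a, Plxnc1 and Sema4d; the open YFP-negative points are from the array with the lower median and are not rescaled here.

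Of the semaphorin receptors, 2 of 2 neuropilins, 2 of 4 A plexins and 2 of 5 B, C and D plexins were called higher in each sorted group, and Plxnc1, described above, was called lower. The neuropilins are co-receptors for class 3 semaphorins and for vascular growth factors, and both were raised. Nrp1 stood at 9.50, 9.54 and 8.71 in YFP-positive, 9.38, 9.86 and 9.74 in wild-type and 5.81 and 5.77 in total marrow arrays, with log2 differences of 3.46 and 3.87, each ± 0.27 (SE). Nrp2 stood at 8.44, 8.60 and 8.17, at 8.55, 8.77 and 8.54, and at 4.42 and 4.33 in the same order, with differences of 4.03 and 4.25, each ± 0.15 (SE). In both genes YFP-positive replicate 3 was the lowest of the YFP-positive and wild-type arrays and still lay far above total marrow.

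Of the A plexins, which pair with neuropilins or bind class 6 semaphorins, Plxna2 stood at 8.78, 8.88 and 8.39 in YFP-positive, 8.58, 8.70 and 9.34 in wild-type and 4.06 and 3.996 in total marrow arrays. The differences were 4.66 and 4.84, each ± 0.25 (SE; limma adjusted p = 5.51e-06 and 4.08e-06). Plxna1 stood at 5.57 to 5.79 in total marrow and 7.55 to 8.13 in the YFP-positive and wild-type arrays. It was higher by 2.17 and 2.32, each ± 0.18 (SE). Plxna3 and Plxna4 were not called, with differences of 0.06 to 0.38. Plxnd1, the receptor of Sema3e that is best known from endothelium, stood at 9.29, 9.16 and 8.58, at 8.88, 8.84 and 9.15, and at 6.25 and 6.19, and was higher by 2.79 and 2.73, each ± 0.22 (SE). Beside Nrp1 and Plxnd1, the mean log2 level of the 12 endothelial markers was 3.68 to 3.97 in the 6 sorted arrays and 4.20 to 4.24 in total marrow. Plxnb1, the receptor of Sema4d, was higher by 1.15 and 1.60, each ± 0.18 (SE). Plxnb2 was not called at 0.65 and 1.13, with YFP-positive replicate 3 at 5.79 beside 6.97 to 7.20 in the other sorted arrays and 5.80 to 6.06 in total marrow, and Plxnb3 differed by 0.06 and 0.02.

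Secreted class 3 semaphorins, the usual ligands of the neuropilins, showed little difference. Sema3a was the single class 3 member called, at 3.47 to 3.73 in the 6 sorted arrays and 3.09 to 3.24 in total marrow. Its differences of 0.44 and 0.47 (each ± 0.12, SE; limma adjusted p = 0.0313 and 0.0271) lie between values that are all below the median of all values. The call in YFP-positive cells ended without marrow replicate 1 (limma adjusted p = 0.0846) and without marrow replicate 2 (limma adjusted p = 0.188), and that in wild-type cells did too (limma adjusted p = 0.0771 and 0.187). Sema3b, Sema3c, Sema3d, Sema3e, Sema3f and Sema3g differed by −0.02 to 0.29 in both groups and were not called. Small differences were also called for Sema4g (0.42) and Sema6c (0.59) in YFP-positive cells, and both calls ended without marrow replicate 1 (limma adjusted p = 0.175 and 0.0905) or 2 (0.186 and 0.0744), while Sema5b, Sema6a and Sema6b were called in neither group.

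Ephrins and EphB receptors made up most calls of the ephrin system. Efnb1, a transmembrane ephrin of EphB receptors with a known role in bone formation, stood at 7.23, 7.62 and 7.51 in YFP-positive, 7.98, 8.04 and 8.05 in wild-type and 4.32 and 4.63 in total marrow arrays. All sorted arrays lay above the marrow arrays, and the log2 differences were 2.98 and 3.55, each ± 0.16 (SE; limma adjusted p = 4.82e-06 and 1.76e-06). Efna5, a lipid-anchored ephrin, stood at 7.55, 7.41 and 7.49, at 7.49, 8.23 and 8.23, and at 4.44 and 3.73, with differences of 3.40 and 3.90, each ± 0.28 (SE). Ephb4, the receptor of ephrin-B2 known from veins, stood at 6.51, 6.64 and 6.21, at 6.79, 6.79 and 6.75, and at 4.36 and 4.32, with differences of 2.12 and 2.44, each ± 0.14 (SE). Efnb2 itself, the arterial ligand of that receptor, stood at 5.20 in wild-type replicate 1, at 3.80 to 4.27 in the other 5 sorted arrays and at 3.56 to 3.57 in total marrow. It was called in wild-type cells (1.00 ± 0.28, SE) and not in YFP-positive cells (0.37 ± 0.28, SE), and the wild-type call ended without either marrow array (adjusted p = 0.164 and 0.159).

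Weaker calls completed the ephrin system. Efna1 (1.39) and Efna2 (1.28) were called higher in wild-type cells and stood at 0.82 and 0.74 in YFP-positive cells without a call; without marrow replicate 1 both wild-type calls ended (limma adjusted p = 0.0877 and 0.0644). Ephb3, below the median of all values in these 8 arrays, was called at 0.54 and 0.67, Ephb6 at 0.67 in wild-type cells and Epha8 at 0.39 in YFP-positive cells. Without marrow replicate 2 the YFP-positive call of Ephb3 ended (limma adjusted p = 0.0679), and without either marrow array those of Ephb6 (0.316 and 0.0899) and Epha8 (0.166 and 0.165) did. Of the 9 EphA receptors measured, the remaining 8 were called in neither group, with differences between 0.00 and 0.27. Epha2 stood at 5.21 to 5.84 in the YFP-positive and wild-type arrays and at 5.38 to 5.50 in the marrow arrays. Efna3, Efna4, Efnb3 and Ephb1 were not called. A median change per family that is below 0 in both groups occurred in the class 4 semaphorins alone, at −0.47 and −0.39, and kept its sign after cyclic loess, quantile normalization and centring on the array median, as did the medians of the other families.

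Of the netrin system 2 of 4 Unc5 receptors and 1 of 4 netrins were called in each sorted group. Unc5b, a netrin receptor that also acts in vessels, stood at 5.99, 6.32 and 6.54 in YFP-positive, 5.93, 5.82 and 6.38 in wild-type and 4.37 and 4.75 in total marrow arrays, with log2 differences of 1.72 and 1.49, each ± 0.23 (SE). Unc5c stood at 4.54, 4.45 and 4.57, at 5.16, 4.40 and 5.19, and at 3.63 and 3.68, and was higher by 0.87 and 1.26, each ± 0.23 (SE). The YFP-positive call of Unc5c ended without either marrow array (limma adjusted p = 0.144 and 0.111). In wild-type replicate 2 Unc5c lay at the level of the YFP-positive arrays, below the other wild-type arrays. Unc5a and Unc5d were not called. Ntn1, the founding member of the netrins, differed by 0.26 and 0.07 and Ntn4, a netrin of basement membranes, by 0.29 and 0.23, neither called. Ntn5 (0.45, YFP-positive) and Ntn3 (0.47, wild-type) were called at levels near or below the median of all values, and both calls ended without either marrow array (limma adjusted p = 0.243 and 0.0547 for Ntn5, 0.168 and 0.114 for Ntn3).

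**Figure D2:**
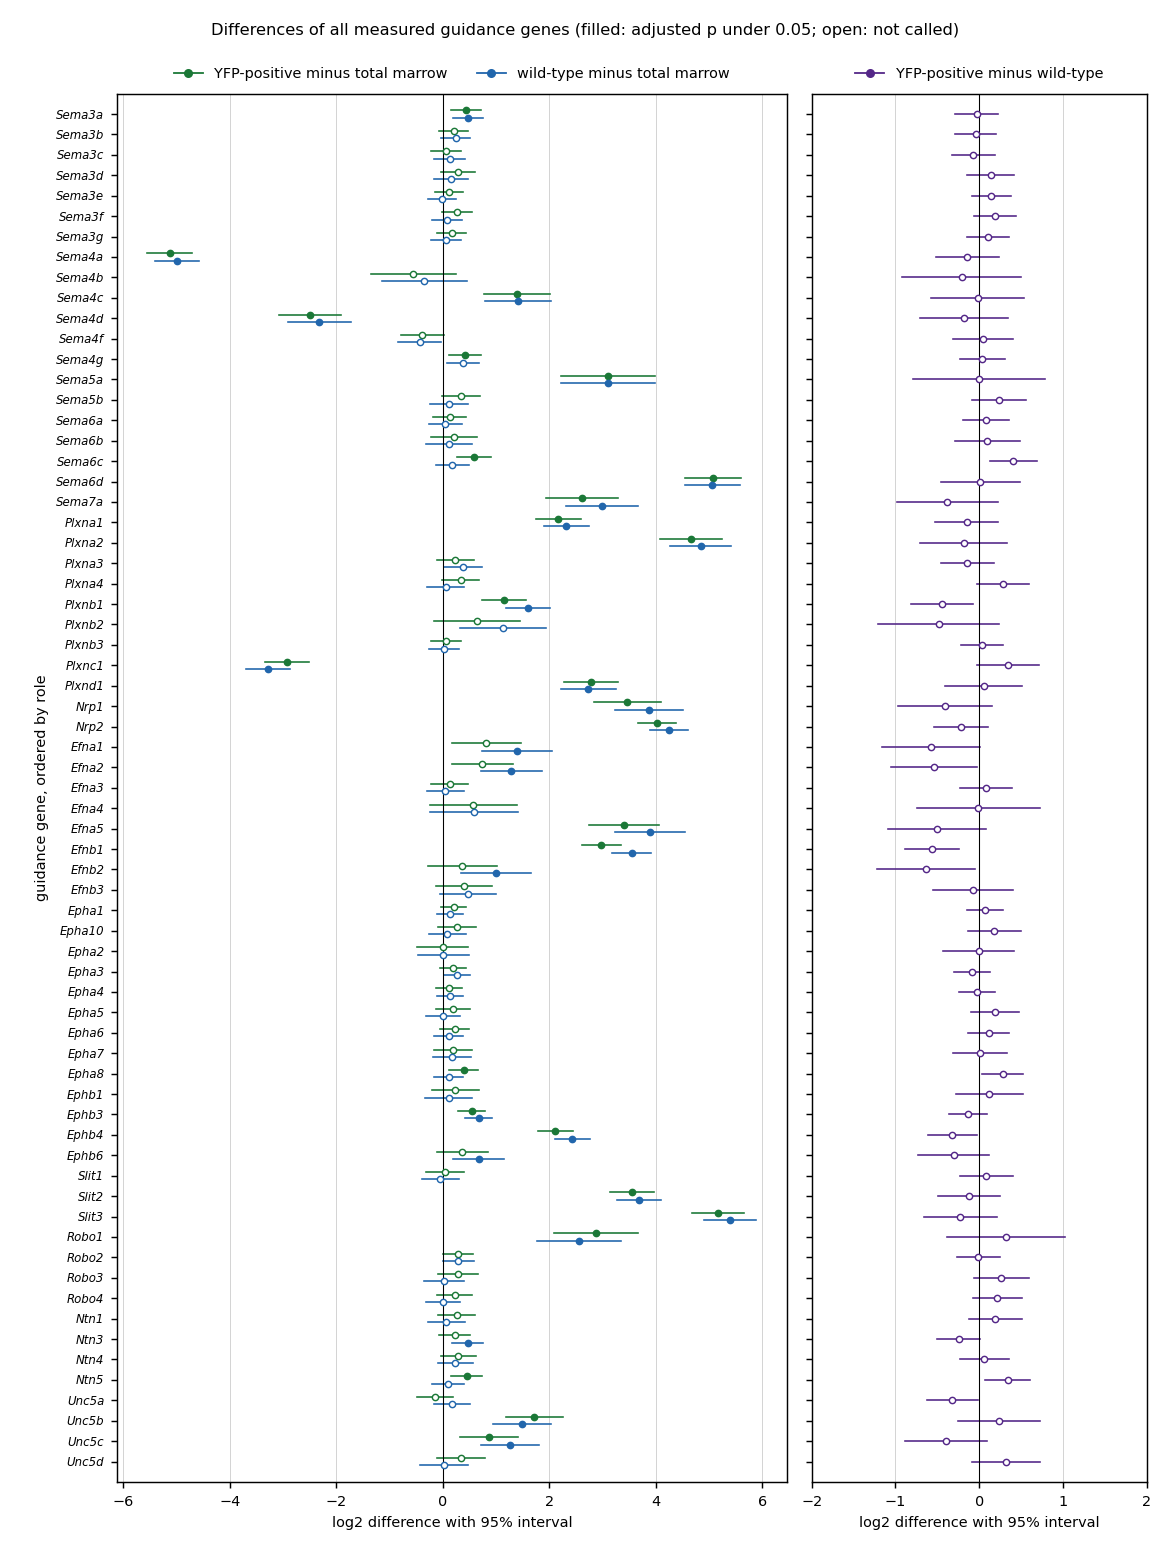
Log2 differences with 95% intervals for all 67 guidance genes; left, YFP-positive (green) and wild-type cells (blue) minus total marrow; right, YFP-positive minus wild-type cells. Filled points are called at an adjusted p under 0.05. The largest differences belong to Slit3 (5.17 and 5.40), Sema6d (5.08 and 5.06) and Sema4a (−5.13 and −4.99), and in the right panel no point is filled.

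Partners outside the families were read from 2 lists, whose counts stand beside 11.0% of all rows called higher and 18.5% lower for YFP-positive and 10.4% and 13.9% for wild-type cells. Of 23 measured co-receptors and extracellular partners, 10 were called higher and 3 lower in each of the YFP-positive and wild-type groups. Neo1 (4.79 and 5.06), the neogenin receptor of netrins and of repulsive guidance molecules, led them, followed by Flrt2 (3.93 and 3.92), a ligand of Unc5 receptors, Itga1 (3.74 and 3.99) and the adhesion molecule Chl1 (2.60 and 2.51). Rgma (1.13 and 1.16) and Rgmb (1.77 and 1.59), the ligands of neogenin, were also called higher. Cd72 (−3.87 and −3.95), the B cell receptor of Sema4d, Met (−1.55 and −1.62) and L1cam (−1.10 and −1.18) were called lower. Of 34 measured intracellular transducers, 10 were called higher and 6 lower in YFP-positive and 9 and 6 in wild-type cells. Dpysl3 (4.18 and 4.33), a collapsin response mediator, Enah (3.93 and 4.21), an actin regulator that acts downstream of Robo, Mical3 (2.49 and 2.46) and Rras (2.07 and 2.37) were higher. Vav3 (−2.83 and −2.88), Tiam1 (−2.16 and −2.25), Fyn (−2.15 and −1.91) and Fes (−1.73 and −1.23) were lower, as was Ablim1, which fell by 1.78 in wild-type cells. The medians were 0.22 and 0.15 for the first list and 0.25 and 0.16 for the second, beside 0.09 and 0.00 over all rows.

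The YFP-positive fraction was also set against the unsplit gate of wild-type mice, a comparison in which reporter status and mouse genotype cannot be told apart. No guidance gene was called by limma (0 of 67, smallest adjusted p = 0.217), where 0.00% of all rows were called. At an unadjusted p under 0.05 there were 9 members, 3 higher and 6 lower in YFP-positive cells. The share of all rows at that threshold is not given here, so no excess can be read from the 9. At an adjusted p under 0.05 every alternative fit also called 0. Nearest to a call on the lower side were Efnb1 (−0.57, 95% interval −0.89 to −0.24), Plxnb1 (−0.45, −0.82 to −0.08) and Efnb2 (−0.63, −1.22 to −0.05). Efnb1 stood below every wild-type array in all 3 YFP-positive arrays, 7.23 to 7.62 against 7.98 to 8.05, while the ranges of Plxnb1 overlapped. On the higher side stood Sema6c (0.41, 0.13 to 0.69), Ntn5 (0.34, 0.07 to 0.61) and Epha8 (0.28, 0.04 to 0.53). The values of these 3 genes and of Efnb2 did not overlap between the groups. All genes named here were picked for a small p, so separate ranges are no further evidence of a difference. For 61 of the 67 members the 95% interval lay within 1 log2 unit of 0. It reached beyond −1 for Plxnb2, Efna1, Efna2, Efna5 and Efnb2 and beyond 1 for Robo1. Members called against total marrow in 1 sorted group alone, such as Efna1, Efna2 and Sema6c, were thus not shown to differ between the groups.

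YFP-negative cells of the gate were set against the other groups after cyclic loess normalization. Against total marrow 29 members were called higher and 5 lower, where 26.2% of all rows were called (13.0% higher and 13.2% lower), and 18 of the 20 members called higher in both other sorted groups were among the 29. Sema6d (5.94), Slit3 (5.07), Efna5 (4.76), Plxna2 (4.54), Nrp1 (4.01), Sema5a (3.83), Nrp2 (3.71), Efnb1 (3.71), Robo1 (3.64), Slit2 (3.34), Unc5c (2.97) and Sema7a (2.86) were the 12 largest. Sema4a (−4.26), Plxnc1 (−2.81), Sema4d (−2.66), Sema4b (−1.43) and Sema4f (−0.85) were lower. On the deposited values the split was 15 higher and 24 lower, where the median over all rows was −0.85. The share of all rows called on those values is not given here. With a single YFP-negative array, the fit takes the spread from the remaining groups, and whatever else sets that array apart cannot be told apart from YFP status.

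Between YFP-negative and the other sorted cells 5 guidance genes were called, and they were the same 5 in both comparisons. The 5 are 7.46% of the 67, where 3.98% of all rows were called against YFP-positive and 4.56% against wild-type cells. Against YFP-positive cells 4 were higher and 1 lower, beside 2.62% and 1.36% of all rows. Against wild-type cells 4 were higher and 1 lower, beside 653 and 341 of the 21789 rows (the latter 1.57%), and both comparisons use the same YFP-negative array. Unc5c stood at 6.63 in the YFP-negative array, at 4.52, 4.41 and 4.49 in YFP-positive and at 5.11, 4.36 and 5.22 in wild-type arrays on the cyclic loess scale. It lay above every other array, by 2.15 ± 0.30 (SE, n = 1 and 3, limma adjusted p = 0.0188) over YFP-positive and 1.73 ± 0.30 (SE, n = 1 and 3, limma adjusted p = 0.0301) over wild-type cells. As deposited it still stood above every array, at 5.48 beside 4.40 to 5.19 in the 6 sorted arrays, with differences of 0.95 (adjusted p = 0.0203) and 0.56 (adjusted p = 0.115).

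The other 3 higher genes depend on the rescaling. Ntn1, a ligand of Unc5c, stood at 5.43 against 4.24 to 4.61 in the other sorted arrays after cyclic loess, Epha10 at 5.30 against 4.01 to 4.37, and Sema3b at 5.15 against 4.14 to 4.42. Their differences were 1.01, 1.03 and 0.97 over YFP-positive and 1.13, 1.12 and 0.84 over wild-type cells. On the deposited values these became −0.13, −0.07 and −0.12 against YFP-positive and 0.06, 0.11 and −0.17 against wild-type cells, none called, while the median over all rows moved to −0.91 and −0.88. The deposited signal of the YFP-negative array for Ntn1 (4.35), Epha10 (4.27) and Sema3b (4.12) was near that of the other sorted arrays, while the median of that array was lower. A second row for Epha10 was not called after cyclic loess, at 0.75 over YFP-positive and 0.83 over wild-type cells. Nrp2 was lower, at 7.67 against 8.27 to 8.49 in the other 6 sorted arrays, by 0.68 and 0.65 (each ± 0.14, SE; limma adjusted p = 0.0442 and 0.0463), and as deposited the change was −1.72 and −1.94. Leaving out either total marrow array, which enters through the shared estimate of the spread, reduced the 5 calls to 1 in both comparisons, Sema3b against YFP-positive and Epha10 against wild-type cells. Leaving out wild-type replicate 1, 2 or 3 left 1, 2 or 3 calls against wild-type cells, and leaving out wild-type replicate 2 left 3 against YFP-positive cells. The call of Nrp2 ended in 12 of 17 alternative fits against YFP-positive and in 10 of 17 against wild-type cells. Its deposited changes stand beside medians of −0.91 and −0.88 over all rows.

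**Figure D3:**
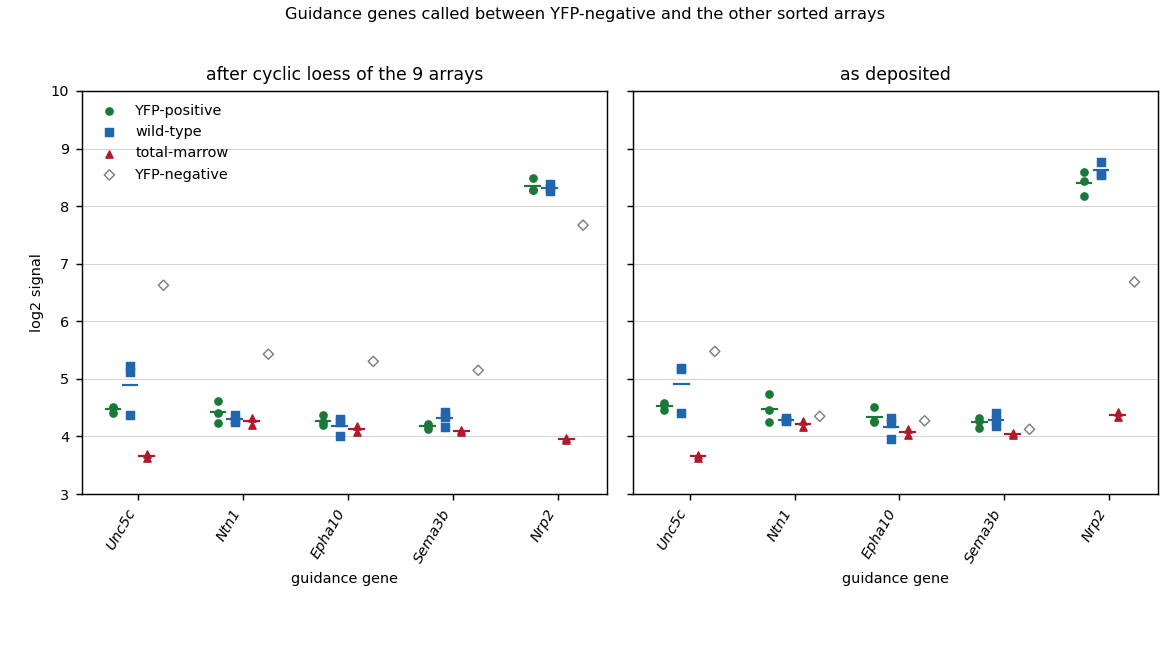
Log2 signal of the 5 guidance genes called between YFP-negative and the other sorted cells, after cyclic loess (left) and as deposited (right); each point is an array and bars are group means. The YFP-negative point for Unc5c lies above all others in both panels, 6.63 and 5.48; those for Ntn1, Epha10 and Sema3b stand apart in the left panel alone, and that for Nrp2 lies below the other sorted arrays in both.

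The partner lists were also read for the single rescaled YFP-negative array. Deposited values and alternative fits are not given for these partners, so how far their calls depend on the rescaling cannot be read here. Their counts stand beside 3.98% of all rows called against YFP-positive and 4.56% against wild-type cells. Of 23 co-receptors and partners 1 was higher in both comparisons, Flrt2 (1.27 over YFP-positive and 1.46 over wild-type cells). Of the 34 transducers, Gsk3b (1.295 and 1.288) and Farp2 (0.92 and 0.81), an activator in class 3 semaphorin signalling, were called higher, and Mical3 (−1.70 and −1.41) and Trio (−1.36 and −1.27) lower.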

How the data were processed

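Each of the 9 arrays gave 1 value per transcript cluster in a table of 35556 rows. The deposited values are log2 signals made by the authors with RMA in Affymetrix Expression Console 1.3.1, per the submitters' processing notes. Whether all arrays were summarised together is not given in the sources used here. Small RNA amounts were amplified before hybridisation (NuGEN Ovation Pico kit), per the labels' protocols.

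Symbols came from the platform annotation, and all 67 member symbols equal the RefSeq symbol of their Entrez identifier. All 9 arrays entered 1 limma fit (limma 3.58.1, R 4.3.3; 1 mean per group, eBayes defaults, 5 residual degrees of freedom) without a filter on signal; tests were two-sided, with a call at an adjusted p under 0.05. Comparisons with YFP-negative used cyclic loess values, whose overall median is 4.53. The overall median (4.43 as deposited) describes where a value lies and is no detection limit. Nothing in the labels ties replicates to separate mice, so p-values measure the spread between these samples, which may be technical; the number of arrays limits the precision.

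The named genes were all members called in a comparison (values in every array for the largest), the 3 smallest p in each direction where none was called, and up to 4 called partners per direction and list. Rgma and Rgmb were added after their values were seen. Members, lists and rules were chosen with earlier results of these data known. The fit was tested on simulated data. Alternatives were other normalizations, a filter on dim rows, fits of the 2 groups alone, trend and robust moderation, array weights, the other row of a gene, a replicate block and leaving out arrays; a fit without the YFP-negative array was added after seeing the data.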

Additional observations from a re-analysis of the deposited data

Results flagged for a closer look

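Epha10 has a second row, not used for the counts, that after cyclic loess was called higher for YFP-negative cells against total marrow, by 0.78 (SE 0.22, limma adjusted p = 0.0357), a signal above the control level outside the rows reported. The row used gave 1.18 in the same comparison. Between YFP-negative and the other sorted cells the second row was not called, at 0.75 over YFP-positive and 0.83 over wild-type cells. As deposited, the second row stood at 3.69 in the YFP-negative array, between the marrow arrays at 3.59 and 3.86, and the row used differed by 0.19 (limma adjusted p = 0.4), which is no call.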

How the results depend on the processing

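The count of guidance genes called stayed within 1.5 times its main value in all 18 alternatives for YFP-positive (27 in the main fit, 20 to 31) and wild-type cells (28, 22 to 33) against total marrow, in all 17 for YFP-negative cells against total marrow (34, 24 to 44), and at 0 in all 18 between YFP-positive and wild-type cells. Leaving out 1 array gave 20 to 26, 22 to 29, 24 to 36 and 0. These counts take both directions together. For YFP-negative cells against total marrow, higher calls outnumbered lower ones in the main fit, while lower calls outnumbered higher ones as deposited. Of the members called, 19 of 27, 21 of 28 and 17 of 34 kept their call in every alternative against total marrow. Between YFP-negative and YFP-positive cells 0 of 5 did, and between YFP-negative and wild-type cells 0 of 5. Without 1 of the marrow arrays Sema3a, Sema4g, Epha8, Ntn5, Unc5c, Sema6c and Ephb3 in YFP-positive cells lost their call. Sema3a, Efna1, Efna2, Efnb2, Ephb6 and Ntn3 did so in wild-type cells, and Sema4d on its second row in both. In YFP-positive cells the calls of Sema3a, Sema4g and Epha8 ended in 11 alternatives each and that of Ntn5 in 10. The wild-type call of Ephb6 ended in 9. These are more than the 8 fits that left out 1 array, so other fits ended these calls too. The other calls named ended in fewer alternatives.

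The 5 calls between YFP-negative and YFP-positive cells became 53 as deposited (1 higher, 52 lower), 10 with quantile normalization (9 higher, 1 lower), 13 with centring (13 higher, 0 lower), 2 with the filter on dim rows, 0 with only the 2 groups and 0 with the replicate block; leaving out 1 array gave 1 to 7. Against wild-type cells the 5 became 53 as deposited (0 higher, 53 lower), 17 with centring (15 higher, 2 lower), 2 with the filter, 0 with only the 2 groups and 0 with the replicate block; leaving out 1 array gave 1 to 7. The deviations of same-numbered arrays from their group means had correlations of −0.08 to 0.06 over all rows. With 2 or 3 arrays in each of these groups, such values cannot exclude a shared sort or batch. With the block the counts against total marrow were 22, 26 and 30. Centring leaves the median of all rows 0.20 to 0.25 above 0 in comparisons with YFP-negative cells. The shares of all rows called under these other scalings are not given here. As deposited the median was −0.91 over all rows and −0.895 over the members against YFP-positive cells. Against wild-type cells these medians were −0.88 and −0.84.

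As deposited, Sema3b (−0.12), Epha10 (−0.0714) and Ntn1 (−0.13) against YFP-positive cells and Sema3b (−0.17) against wild-type cells changed sign. So did Sema3a (−0.0277), Sema3c (−0.0919), Sema3g (−0.26), Sema5b (−0.48), Plxna3 (−0.40), Epha3 (−0.18) and Ntn3 (−0.23) of the YFP-negative array against total marrow, where the median over all rows is −0.85. The second Sema4d row gave 0.30 for YFP-positive and 0.46 for YFP-negative cells against total marrow; the cause was not tested.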
